A study of Mus musculus with 12 samples.

Results

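The mouse genes Eya1, Eya2, Eya3, Eya4 and Six4 were followed through RNA sequencing of embryonic stem cells (ES cells). These 5 genes, of 39179 in the count table, were taken by their symbols. The set was selected on measured values: Eya1 had more reads in cells without Smad1 and Smad5 than in their floxed controls, and more in reporter-positive than in reporter-negative cells. For the members, differences in those comparisons are therefore given as descriptions, with no test.

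EYA proteins are transcriptional coactivators that lack a DNA-binding domain and are brought to their target genes by SIX-family homeodomain proteins. They also carry a phosphatase domain, which acts on tyrosine residues, among them one of the histone variant H2AX. With PAX and DACH factors, the EYA and SIX-family proteins form a regulatory network in the development of the eye, ear, kidney, muscle and cranial placodes. Six4 encodes one of the SIX-family DNA-binding proteins. SMAD1 and SMAD5 carry the signal of bone morphogenetic proteins (BMPs) from receptor to nucleus.

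The 12 libraries formed 4 groups from 2 experiments. The first experiment sorted ES cells of genotype BRE-GFP, from a mixed CBA, C57Bl/6 background, by the surface antigen SSEA1 and by GFP into BRE-positive and BRE-negative cells, and the series title speaks of subpopulations activated by Bmp. There were 3 libraries of each, collected in pairs at 3 times from cells grown in FCS + Lif on feeders, and the labels call these cells naïve. The second experiment compared 4 libraries of Smad1/5 -/- cells (KO) with 2 libraries of Smad1/5 fl/fl cells (FL), all called ground state and of a background that mixes CD-1, 129/Ola and C57Bl/6. These were grown in 2i + Lif on gelatin, and 2 parental lines each gave 1 FL and 2 KO libraries. Which library came from which line is not given. Libraries held 25862573 to 37319846 counts.

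The 8 ES-cell markers summed to 4590 to 5930 CPM (counts scaled to the same library size) in every library, and none was at 0. Single markers differed between groups. Nanog was lower in KO than in FL cells (log2 fold change -0.60, edgeR adjusted p = 0.00613), where 5.03% of all genes passed. The other 7 markers did not pass in that comparison. Between the BRE-GFP cells and the KO and FL cells, 63.2% of all genes passed. There 3 of the 8 markers were higher and 2 lower in BRE-GFP cells, Zfp42 the most (-2.30, edgeR adjusted p = 1.59e-09). The targeted genes stood at 12.3 to 17.4 CPM in KO and 18.1 to 19.0 CPM in FL libraries for Smad1, and at 25.1 to 34.5 CPM in KO and 31.4 to 33.6 CPM in FL libraries for Smad5. Neither difference passed the test (edgeR adjusted p = 0.187 and 0.719), and since the deleted part is not given, this checks nothing about the label. The 17 fibroblast markers that stand for feeder cells summed to 67.7, 184 and 157 CPM in the BRE-positive libraries and 102, 209 and 198 CPM in the BRE-negative ones. They summed to 22.6 to 32.4 CPM in KO and 23.5 to 39.6 CPM in FL libraries. The sum was lower in the BRE-positive member of every pair and lowest in the feeder-free lines, and the part of fibroblast RNA in the results below was not tested. In bulk samples, fewer cells that express a gene and less RNA per cell cannot be told apart.

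On the mouse genome (mm10, GENCODE M21) the members lie on 5 chromosomes, and no exon of theirs overlaps an exon of another gene. Eya1 (ENSMUSG00000025932) spans bases 14168954 to 14310235 of chromosome 1 on the minus strand. Eya2 (ENSMUSG00000017897) lies on chromosome 2 from 165595032 to 165771727, and Eya3 (ENSMUSG00000028886) on chromosome 4 from 132638987 to 132724765, both on the plus strand. Eya4 (ENSMUSG00000010461) spans 23102963 to 23350786 of chromosome 10 on the minus strand. Six4 (ENSMUSG00000034460) spans 73099609 to 73113456 of chromosome 12 on the minus strand.

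RefSeq promoter windows (GRCm38.p6, 250 bases before to 50 after a transcription start) were at hand for 3 of the 5 members, Eya3, Eya4 and Six4. The Six4 window below is shown because Six4 had the largest tested difference among the members, and because it was the only one of the 5 member windows with the site SIX-family proteins are known to bind. That site, known as MEF3, was searched as TCAGGTTTC on both strands. The capitals mark its reverse complement, which begins 99 bases before the start used for this window. The window is chr12:73113196-73113495, minus strand, with 60.0% G and C. Six4 has another window, chr12:73113376-73113675, set on a start farther upstream. That window overlaps the one shown but does not hold the site, which lies downstream of that other start.
Six4 promoter: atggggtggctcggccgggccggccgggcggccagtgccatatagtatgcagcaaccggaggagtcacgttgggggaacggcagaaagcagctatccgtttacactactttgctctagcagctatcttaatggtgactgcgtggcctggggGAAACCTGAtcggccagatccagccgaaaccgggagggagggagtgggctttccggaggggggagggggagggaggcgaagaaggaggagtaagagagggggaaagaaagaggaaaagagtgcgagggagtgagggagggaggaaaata
The same letters occur in 141 of 32851 mouse windows (0.429%). The GC-rich SMAD1/5 motif GGCGCC, which is its own reverse complement, occurs in 11.9% of all windows and in neither the Six4 nor the Eya3 windows. It occurs once in each of the 2 Eya4 windows, which overlap and hold the same site. The SMAD palindrome GTCTAGAC, in 0.213% of all windows, is in none of the member windows. These matches describe the letters only.

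Eya3 was the main Eya transcript in these cells, Eya1 a minor one, and Eya2 and Eya4 were barely sequenced. Levels between genes are compared as TPM, which divide the counts by gene length before scaling each library; the deposited values add 1 count to every gene, so those of Eya2 and Eya4 are raised by that count. Six4 stood at 9.69 to 11.6 TPM in the reporter cells and 32.3 to 39.1 TPM in the Smad1/5 lines. Eya3 stood at 6.83 to 10.8 TPM over all 12 libraries and Eya1 at 0.164 to 1.28 TPM. Of the summed Eya TPM, Eya3 gave between 83.8% and 95.9% in each library. The share of Eya1 was 8.96% to 12.6% in BRE-positive and 5.6% to 9.28% in BRE-negative libraries, and 9.04% to 14.6% in KO against 2.26% to 2.69% in FL libraries.

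Some neighbours in this order did not separate. The ratio of Six4 to Eya3 TPM was 0.897 to 1.36 in BRE-positive and 1.18 to 1.4 in BRE-negative libraries, so the genes were close there. In the Smad1/5 lines the ratio was 4.14 to 5.49 in KO and 4.42 to 4.67 in FL libraries. In KO cells the lowest Eya1 value was 0.868 TPM and the highest Eya2 value 0.0809 TPM. In FL cells the deposited Eya1 values (0.164 and 0.224 TPM) overlapped those of Eya2 (0.169 and 0.0796 TPM). The added count raises Eya2, at 11 and 5 reads, more than Eya1, at 28 and 41 reads. The overlap is therefore stated for the deposited values only.

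**Figure D1:**
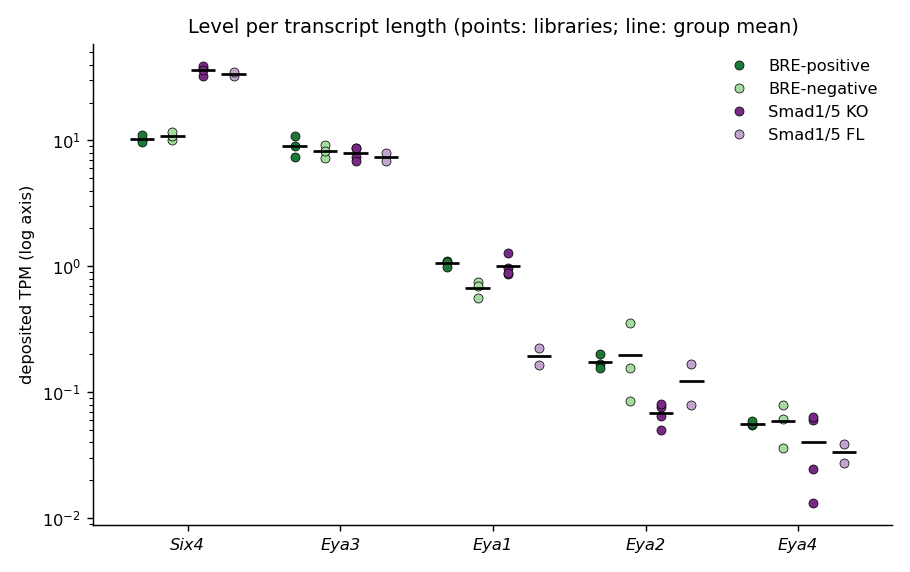
Deposited TPM (log axis) of the 5 genes in each library, with group means as lines. Six4 and Eya3 lie near each other in the reporter cells and apart in the Smad1/5 lines, and Eya1 is lowest in FL cells at 0.164 and 0.224 TPM.

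Eya1 varied most between KO and FL cells. Its CPM, scaled by TMM library size, were 6.94, 4.81, 4.88 and 4.41 in the KO libraries and 0.829 and 1.12 in the FL libraries. Every KO library was above both FL libraries, which the selection of Eya1 on this comparison favoured. These values rest on 206, 171, 178 and 134 reads in KO and on 28 and 41 reads in FL cells. The lowest KO count had an exact Poisson 95% interval of 112 to 159, and the FL counts had intervals of 18.6 to 40.5 and 29.4 to 55.6 (counting error only). Means were 5.26 ± 1.14 CPM in KO (SD, n = 4) and 0.973 ± 0.204 CPM in FL cells (SD, n = 2).

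The log2 fold change of Eya1 was 2.43 ± 0.28 (SE), or 5.40-fold. Of 15933 genes tested, 7, Eya1 among them, had one as high or higher, a rank that the selection favoured. The log2 fold change of Eya1 ranged from 0.74 to 2.65 over 14 alternative settings. The lowest came from adding 1 to TPM before the logarithm, which compresses a gene at about 1 TPM. As background, 5.03% of all genes passed the threshold of an adjusted p of 0.05 in this comparison; the members, selected on it, are only described. Of the fibroblast markers, 1 of 9 tested was lower in KO cells and none was higher.

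Eya3 and Six4 differed little between KO and FL cells. Eya3 had 49.2, 46.9, 54.4 and 54.3 CPM in KO and 44.4 and 50.1 CPM in FL cells. These ranges overlap, and the log2 fold change was 0.12 ± 0.09. Six4 had 164, 194, 183 and 169 CPM in KO and 156 and 167 CPM in FL cells, ranges that also overlap, with a log2 fold change of 0.15 ± 0.08. Both estimates stayed above 0 and did not exceed 0.2 over 15 alternatives each.

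Eya2 and Eya4 had too few reads for this fit. Eya2 had 4, 3, 5 and 3 reads in the KO libraries and 11 and 5 in the FL libraries. Eya4 had 3, 1, 0 and 3 reads in KO and 1 and 2 in FL cells. The Poisson 95% intervals were 0.619 to 8.77 for 3 reads, 5.49 to 19.7 for 11 reads and 0 to 3.69 for no read, so a difference of Eya4 was not detectable at this depth.

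**Figure D2:**
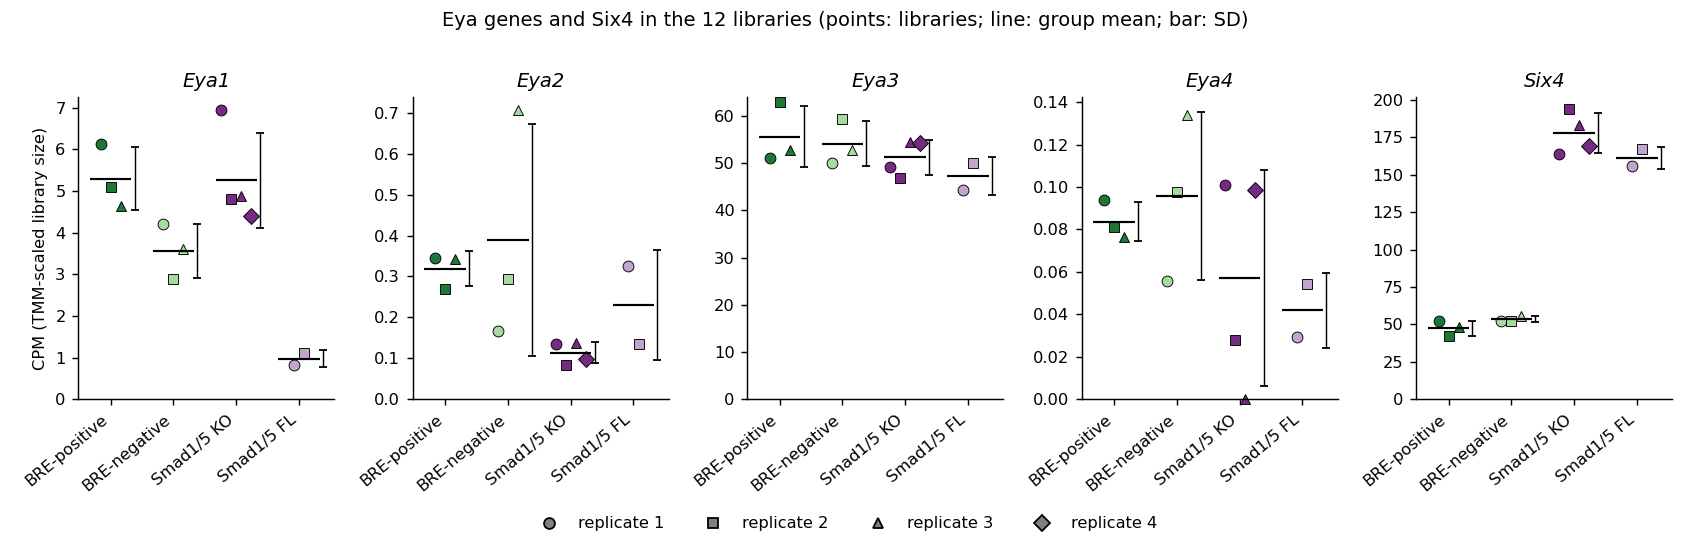
CPM of each gene by group, with 1 panel and 1 linear axis per gene; points are libraries, lines group means and bars SD. Eya1 is at 2.9 CPM or more in every library outside FL and at 0.829 and 1.12 CPM in FL cells, and Six4 separates the reporter cells from the Smad1/5 lines.

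In the sorted reporter cells Eya1 was again the member that varied. It had 6.13, 5.10 and 4.65 CPM in the BRE-positive libraries and 4.2, 2.9 and 3.60 CPM in the BRE-negative libraries of collections 1, 2 and 3. All 3 BRE-positive values were above all 3 BRE-negative ones, which the selection of Eya1 on this comparison also favoured. The counts behind them were 196, 189 and 122 reads in BRE-positive and 151, 89 and 107 in BRE-negative cells. Within the pairs, BRE-positive cells had 1.46, 1.76 and 1.29 times the BRE-negative level.

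Means of Eya1 were 5.30 ± 0.76 CPM in BRE-positive and 3.56 ± 0.65 CPM in BRE-negative cells (SD, n = 3 each). The log2 fold change with the pair as a block was 0.58 ± 0.13, or 1.5-fold. Of 15435 genes tested, 403, Eya1 among them, had one as high or higher, a rank that the selection favoured. The log2 fold change of Eya1 ranged from 0.30 to 0.67 over 11 alternatives. As background, 2.97% of all genes passed the threshold in this comparison, on which the set was also selected. The summed fibroblast markers were lower in the BRE-positive member of each pair, and their part in the Eya1 difference was not tested. Of 16 tested markers none passed as higher, with Thy1 (0.25) and Pdgfrb (0.02) above 0 on the log2 scale, and 4 passed as lower. Those were Acta2, Tagln, Col1a2 and Fbln2, genes of contractile and matrix proteins; their log2 fold changes were -1.12, -0.57, -0.48 and -0.41 (edgeR adjusted p = 0.00357, 0.0495, 0.0279 and 0.00852).

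The other members showed no common direction in the sorted cells. Six4 had 52.4, 42.4 and 48.1 CPM in BRE-positive and 52.4, 52.6 and 55.7 CPM in BRE-negative cells of the same 3 collections. It was level in collection 1 and lower in BRE-positive cells in the other two, with a log2 fold change of -0.17 ± 0.07. Eya3 had 51.1, 62.9 and 52.7 CPM in BRE-positive and 50.0, 59.4 and 52.8 CPM in BRE-negative cells. It followed the collection more than the sort, and its log2 fold change was 0.04 ± 0.06.

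Eya2 had 11, 10 and 9 reads in BRE-positive and 6, 9 and 21 in BRE-negative cells, with pair ratios of 2.06, 0.921 and 0.486 in CPM. Its log2 fold change of -0.17 had an SE of 0.45. Eya4 had 3, 3 and 2 reads in BRE-positive and 2, 3 and 4 in BRE-negative cells and was below the count filter. Over all 12 libraries Eya4 had 27 reads.

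Seen over the 4 groups, the 10 libraries outside FL held Eya1 at 2.9 to 6.94 CPM, and FL stood apart at 0.829 and 1.12 CPM. BRE-negative cells, at 2.9 to 4.2 CPM, lay just below KO cells, at 4.41 to 6.94 CPM, and BRE-positive cells, at 4.65 to 6.13 CPM, lay within the KO range. In the feeder-free KO libraries 3 of the 17 fibroblast markers were at 0 in all 4 libraries: Postn, a matrix gene, Lum, a proteoglycan gene, and Fap, a surface protease gene. Others were measured there, among them Col5a1, a collagen gene, at 12.7 to 19.1 CPM, and Fbln2 at 2.08 to 4.78 CPM. The part of fibroblast RNA in the Eya1 levels was not tested.

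The comparison between the experiments was not part of the selection, and here Six4 and Eya3 were tested. Eya1 is described only, since the comparison uses the KO and FL values it was selected on. The counts of each collection of the reporter line (both sorts summed, n = 3) were set against the mean of KO and FL cells (n = 4 and 2). Strain, line, medium, feeders, sorting and genotype all differ with the experiment and cannot be told apart. Of all genes, 63.2% passed, 5348 higher and 5369 lower in the reporter line, so a pass was the rule among genes.

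Six4 was lower in the reporter line. Its 6 reporter libraries ranged from 42.4 to 55.7 CPM, all below the 156 to 194 CPM of the 6 Smad1/5 libraries. The log2 fold change was -1.74 ± 0.08, or 3.34-fold lower, with an edgeR adjusted p = 5.22e-08. It stayed between -1.92 and -1.64 over 21 alternatives.

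Eya3 did not pass the test, and Eya1 and Eya2 are described without one. For Eya1 the log2 fold change over the mean of KO and FL cells was 0.97 ± 0.19. It was 2.18 ± 0.27 against FL cells alone and -0.24 ± 0.20 against KO cells alone, so its sign rests on the FL libraries. For Eya2, at 6 to 21 reads in the reporter and 3 to 11 in the Smad1/5 libraries, the log2 fold change was 1.12 ± 0.41. Eya2 was below the count filter in the Smad1/5 fit and entered this one through the reporter libraries, where it is higher, so no call is read from it. Eya3 had 50.0 to 62.9 CPM in the reporter and 44.4 to 54.4 CPM in the Smad1/5 libraries, and its log2 fold change of 0.16 ± 0.09 did not pass (edgeR adjusted p = 0.13).

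**Figure D3:**
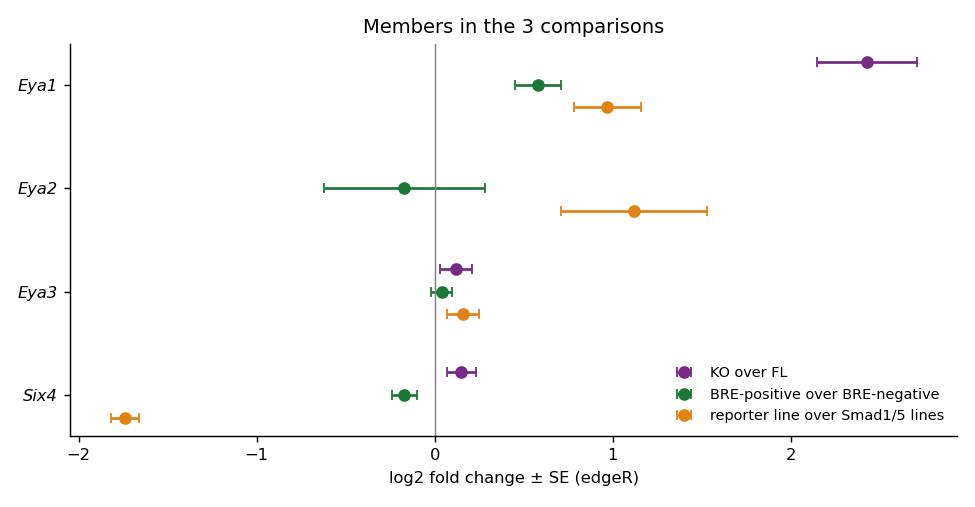
Log2 fold change with SE (edgeR) of the 4 members with enough reads, in the 3 comparisons. Eya1 lies above 0 in each, at 2.43, 0.58 and 0.97; Six4 is far from 0, at -1.74, between the reporter line and the Smad1/5 lines; Eya2 has no KO over FL value. Signs of Eya1 between the experiments differ when KO cells alone are the comparison (-0.24).

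Other genes of the PAX-SIX-EYA-DACH network were taken from 6 lists of 54 symbols, of which 53 matched. Between KO and FL cells 32 were tested, 1 was higher and 3 were lower, 12.5% of those tested against the 5.03% of all genes. Myc, a growth-promoting transcription factor in the list of SIX-EYA targets, was higher in KO cells by 1.26 ± 0.28 on the log2 scale (edgeR adjusted p = 0.0442), at 7.40 ± 2.02 CPM in KO and 3.12 ± 0.0979 CPM in FL cells. Ezr, which encodes the membrane linker ezrin, was lower in KO cells at -0.43 ± 0.06 (adjusted p = 0.0158). Gnaz, a G protein subunit that binds EYA2, was lower at -1.25 ± 0.22 (adjusted p = 0.0252), and Skil, a SMAD corepressor related to DACH, at -0.56 ± 0.12 (adjusted p = 0.0423). Leaving out FL replicate 1 leaves a single FL library, and the loss of these 4 calls there was shared by all genes called. Over the 6 fits that leave out 1 library, Ezr was called in 5, Gnaz in 2, Myc in 1 and Skil in none.

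Between BRE-positive and BRE-negative cells 30 network genes were tested, none was higher and 1 was lower, 3.33% against 2.97% of all genes. That gene was Ccnd1, for cyclin D1, at 126 ± 13.8 CPM in BRE-positive and 152 ± 23.8 CPM in BRE-negative cells (log2 fold change -0.26 ± 0.06, edgeR adjusted p = 0.0349). Its call was lost without collection 2 and without collection 3.

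Between the reporter line and the Smad1/5 lines 34 network genes were tested, 9 were higher and 9 lower, 52.9% against the 63.2% of all genes. Six5, a SIX-family gene at 2.11 to 3.75 CPM in the reporter and 1.15 to 2.01 CPM in the Smad1/5 libraries, passed in none of the 3 comparisons, and Six2, Six3 and Six6 were below the count filter. Of the PAX genes, Pax6, an eye regulator, was lower (-2.41 ± 0.35), at 0.195 to 0.504 CPM in the reporter and 1.15 to 2.56 CPM in the Smad1/5 libraries. Pax7, a muscle and neural crest regulator, stood at -2.94 ± 0.45 and Pax8, a thyroid and kidney regulator, at 1.88 ± 0.51. Pax7, Pax8, Atoh1, Gata3 and Irx1 were below the count filter in the experiment where they are lower and entered only through the other, so their passing was partly set by the filter.

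Of the 11 tested DACH genes and SIX-or-EYA partners, 5 were higher and 1 was lower. Their median log2 fold change was 0.26, against 0.001 for all genes. The list counts here and in the next paragraph stand beside the 63.2% of all genes that passed. Tle2 (1.43 ± 0.29), Aes (0.44 ± 0.10) and Tle3 (0.26 ± 0.07) encode Groucho family proteins, and Ski (0.33 ± 0.07) a SMAD corepressor. Gnaz (1.0 ± 0.21) also rose, while Mcrs1, a nuclear scaffold protein, fell (-0.41 ± 0.08). The Gnaz value is over the mean of KO and FL cells, and only the KO libraries were apart from the reporter libraries. The reporter range of Gnaz, from 5.02 CPM upward, overlapped that of FL (5.36 to 6.13 CPM) and lay above that of KO (1.68 to 2.87 CPM). For Gnaz, a comparison with KO or FL cells alone was not tested. Dach2, a DACH-family cofactor, did not pass (-0.04 ± 0.19, edgeR adjusted p = 0.861).

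Of 7 tested SIX-EYA target genes, Myc was higher (1.79 ± 0.23), while Slc12a2, a sodium, potassium and chloride cotransporter (-0.66 ± 0.11), Atoh1, a hair cell regulator (-1.43 ± 0.45), and Sall1, a kidney regulator (-0.30 ± 0.10), were lower. The 6 partners in phosphatase and DNA damage functions gave Mapk8, for the kinase JNK1, as higher (0.99 ± 0.07) and Abl1, a tyrosine kinase, as lower (-0.18 ± 0.07). Of 6 tested preplacodal genes, Irx1 was higher (2.04 ± 0.67) and Otx2 (-2.44 ± 0.17) and Gata3 (-1.85 ± 0.56) were lower. Otx2, a regulator of forebrain and of the exit from naïve pluripotency, had 2.69 to 5.68 CPM in the reporter and 16.5 to 38.1 CPM in the Smad1/5 libraries. When single libraries were left out, calls were lost for Abl1 in 7 of 9 fits, Atoh1 in 3, Sall1 and Irx1 in 2 each (Irx1 of 7 fits) and Gata3 in 1. Beside these differences, the summed fibroblast markers stood at 67.7 to 209 CPM in the reporter and 22.6 to 39.6 CPM in the Smad1/5 libraries. The 7 primitive endoderm markers summed to 7.29 to 18.3 CPM in the reporter and 3.32 to 6.07 CPM in the Smad1/5 libraries. The part of either was not tested.

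**Figure D4:**
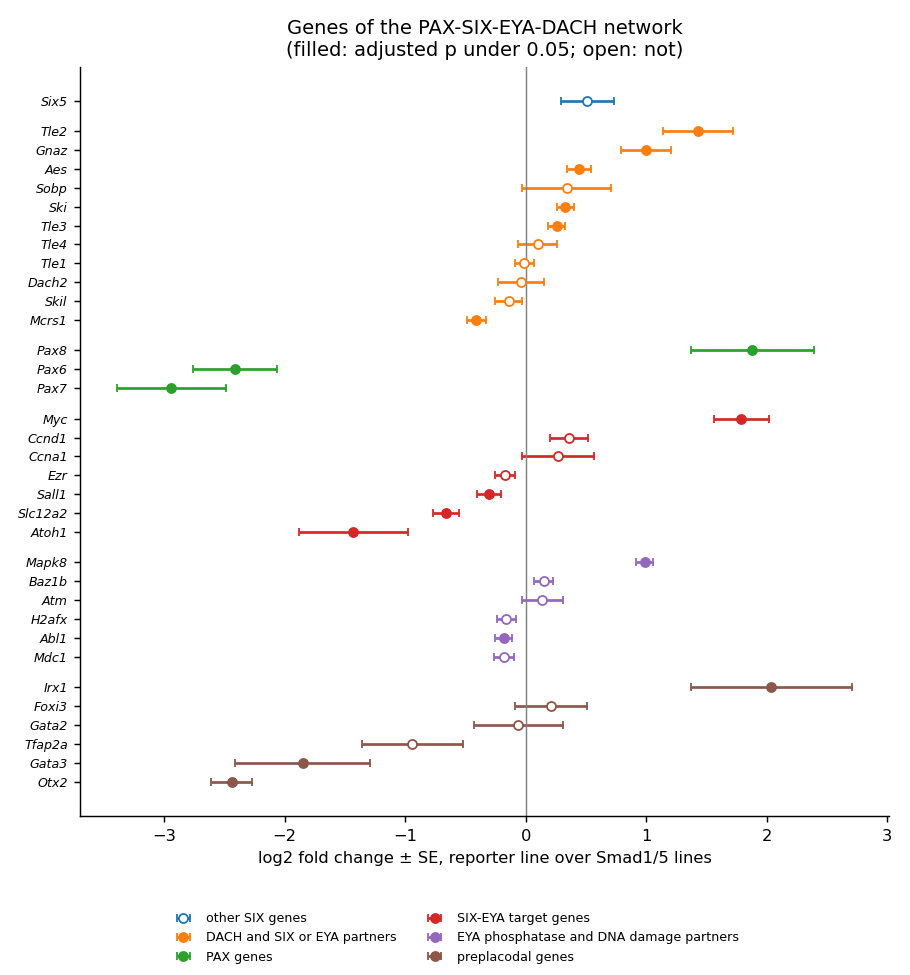
Log2 fold change with SE of the tested network genes, reporter line over Smad1/5 lines, coloured by list; filled points had an adjusted p under 0.05. Pax7 is farthest below 0, at -2.94, and members of the lists lie on both sides of 0.

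The genes whose pattern was most like that of Eya1 were sought over the 12 libraries by Pearson correlation of log2 CPM, after the mean of each experiment was subtracted, among 10736 genes. They were Elk3 (0.952), Slc20a1 (0.943), Clcn6 (0.943), Dolpp1 (0.940) and Armcx4 (0.940). The likeness came mostly from the Smad1/5 libraries, where these 5 correlations were 0.947 to 0.991, against 0.138 to 0.876 in the reporter libraries. The ranking used these same libraries, so high values there were favoured by it. In the same order, the KO over FL log2 fold changes were 1.01, 0.54, 0.44, 0.31 and 0.66. Eya1 was selected on that comparison. Between BRE-positive and BRE-negative cells they were 0.02, 0.04, 0.11, 0.07 and 0.18. Elk3, an ETS family transcription factor, averaged 15.1 CPM in KO and 7.52 CPM in FL cells, and 17.8 CPM in BRE-positive and 17.6 CPM in BRE-negative cells. Eya1 itself correlated at 0.266 with Eya3 and at 0.247 with Six4.

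For Six4 the most alike genes were Lamtor5 (0.909), Snx2 (0.884), Hat1 (0.884), Gstp2 (0.862) and Aco1 (0.844), with 0.794 to 0.907 in the reporter and 0.885 to 0.977 in the Smad1/5 libraries. Gstp2, a glutathione transferase, was far lower in the reporter line (log2 fold change -1.82). It had 4.88 CPM in BRE-positive and 5.70 CPM in BRE-negative cells, against 21.2 CPM in KO and 16.5 CPM in FL cells. Lamtor5, Snx2, Hat1 and Aco1 differed less between the experiments (-0.32, -0.48, -0.29 and -0.33). The mean of each experiment was subtracted before the ranking, so the likeness does not cover these differences. Libraries within an experiment share their lines or collections, and these correlations are descriptions.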

How the data were processed

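Total RNA of the 12 samples was sequenced with a stranded kit after ribosomal RNA removal, per the labels' protocols. The submitters' processing notes list CASAVA 1.8.2 and FastQC 0.11.3, STAR (2.4.1d), featureCounts at version 1.4.6, the package DESeq2 at 1.6.3, and the builds mm10 and GRCm38.p4. Neither the annotation release nor the strand setting is given in the sources used here. The authors deposited raw counts for 39179 genes and a table of TPM, a length-scaled signal. All 38310 genes in the latter equal (count + 1) over 1 length within 0.1 percent.

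Groups came from the titles. Counts were tested with the quasi-likelihood test of edgeR 4.0.16 (R 4.3.3), TMM scaling and an expression filter (minimum count 10, total 15); tests were two-sided, with Benjamini-Hochberg adjustment over all genes and a threshold of 0.05. The reporter fit had the collection as a block, since the series states pairs: same-numbered libraries correlated at 0.635, 0.485 and 0.424 in their deviations, others at -0.468 to 0.106. The KO fit had none and counts the 4 KO libraries as independent, although each line gave 2. Whether replicates were separate cultures is not stated, so the p-values reflect only how much these libraries vary. Alternatives were DESeq2 1.42.0, limma 3.58.1 on log2(TPM + 1) or log2(TPM + 0.1), other scaling and filters, block choices, and leaving out libraries; exon-length offsets and comparisons with KO or FL alone were added after seeing the data. Scripts were tested on simulated counts.

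Members and lists were chosen with earlier results of these data known. Named were the members, network genes past the threshold, Smad1 and Smad5, and the 5 genes most like Eya1 and most like Six4 (mean log2 CPM of at least 1); others were named after their values were seen. One gene of the lists is not reported here and is left out of their counts.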

Additional observations from a re-analysis of the deposited data

How the results depend on the processing

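Eya1 kept its sign in KO over FL cells and in BRE-positive over BRE-negative cells under every alternative run. Its log2 fold change in KO over FL cells was smaller with limma, at 0.74 on log2(TPM + 1) and 1.90 on log2(TPM + 0.1), and in BRE-positive over BRE-negative cells it was 0.30 on log2(TPM + 1). For the reporter line it was -0.24 against KO cells alone and 2.18 against FL cells alone. Six4 between the experiments kept its sign and its call. Eya1 with 28 and 41 reads in FL cells, and Eya2 and Eya4 throughout, are limited by depth.

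The number of genes past the threshold between KO and FL cells was 801 (294 higher), and 1498 with DESeq2 (653 higher). With limma it was 360 (32 higher), 136 (17 higher) and 198 (39 higher) on log2(TPM + 1), log2(TPM + 0.1) and filtered TPM. Leaving out 1 library gave 0 to 857: 0 without FL replicate 1 (1948 at an unadjusted p under 0.05), 142 without FL replicate 2, and 236 and 215 without KO replicates 3 and 4. With the replicate block it was 0 by edgeR (2589 unadjusted); the shared numbers were not taken to pair these samples. FL replicate 1 correlated at 0.226, 0.377, -0.345 and -0.312 with KO replicates 1 to 4, and FL replicate 2, whose deviations mirror it, at -0.226, -0.377, 0.345 and 0.312. The deviations are taken from group means, so both signs must occur among these values, and no grouping by line is read from them. The labels do not say which libraries share a line.

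Between BRE-positive and BRE-negative cells 459 genes passed (302 higher), and 328 with DESeq2. There were 1010 with no count filter (534 higher), 154 with exon-length offsets, and 42 with limma on log2(TPM + 0.1). Limma on log2(TPM + 1) gave 0 (4189 unadjusted), also with the TPM filter (2679 unadjusted). EdgeR without the pairing gave 0: no replicate block (343 unadjusted) and all 12 libraries in 1 fit (516 unadjusted). Leaving out 1 collection gave 200 (without the third) to 2225 (without the first). The counts between the experiments stayed within 1.5 times of 10717. The cause of these shifts was not tested.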
